A study of Homo sapiens with 2 samples.

Results

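The thioredoxin and peroxiredoxin genes of HSC-3 cells were followed between 1 RNA-seq library of cells given the vehicle, 0.1% DMSO, and 1 library of cells treated with 1 µM FIN56 for 48 h. HSC-3 is an established cell line from a human squamous cell carcinoma of the tongue, and FIN56 is a small molecule used to induce ferroptosis, an iron-dependent cell death driven by lipid peroxidation. For the DMSO library the labels name no duration. The 10 genes were chosen by name and not by their values, although earlier results of these data were known. Their symbols are TXN, TXN2, PRDX1 to PRDX6, SRXN1 and TXNIP, and each matched 1 of the 60616 rows of the deposited tables.

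Thioredoxins are small proteins that reduce disulfide bonds in other proteins and are themselves reduced by thioredoxin reductase at the cost of NADPH. Peroxiredoxins use a reactive cysteine to remove hydrogen peroxide and organic peroxides, and most of them are returned to the reduced state by thioredoxin. When a peroxiredoxin cysteine is oxidized too far, sulfiredoxin can restore it, and TXNIP binds thioredoxin and restrains it. The system works beside the glutathione peroxidases, of which GPX4 removes lipid peroxides and restrains ferroptosis.

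The RSEM expected counts, estimates in which reads that fit more than 1 gene are shared out, came to 70184517 for DMSO and 73062209 for FIN56. Mitochondrial genes held 4.77% and 5.75% of these totals. All 11 markers of squamous carcinoma cells that were looked up, among them KRT5, KRT14 and TP63, had FPKM values of 1 or more with DMSO and with FIN56. Of 10 markers of leukocytes, endothelium and fibroblasts, PTPRC and CD3E were at 0 in both libraries, and 2 (CD68 and COL1A1) reached an FPKM of 1 in both. The summed TPM of these 10 markers was 92.7 with DMSO and 41.5 with FIN56, most of it from CD68, and its part in the values below was not tested. With 1 library per condition there was no spread between replicates and no test, and the effect of FIN56 cannot be told apart from any other way in which the cultures differed. In RNA of a whole culture, fewer cells that express a gene cannot be told apart from less RNA per cell.

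None of the 10 genes reached an FPKM ratio (FIN56 over DMSO) of 1.5, the fold that the study used, and none was at 1/1.5 or less. Among the 24454 genes expressed in both libraries (FPKM above 0), 14.7% had a ratio of 1.5 or more and 17.3% one of 1/1.5 or less, many of them at low levels. All 10 members stood at an FPKM of 30 or more with either treatment. Among the 3135 genes above that level, 1.59% had a ratio of 1.5 or more and 2.84% one of 1/1.5 or less, so a count of 0 among 10 is near the background of well expressed genes. The ratios of the members ran from 0.905 for PRDX2 to 1.28 for PRDX4, with 5 above 1 and 5 below. Of the 24454 genes, 11770 were higher and 11299 lower, and 57.3% of the well expressed genes were higher. The counts of higher and lower genes given below are to be read beside these. Their median log2 FPKM ratio was -0.01, beside 0.000 over all genes and 0.04 over the well expressed genes, and its sign turned with the scaling, to 0.02 by TPM, 0.01 by rlog values and 0.03 by median-of-ratios size factors.

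**Figure D1:**
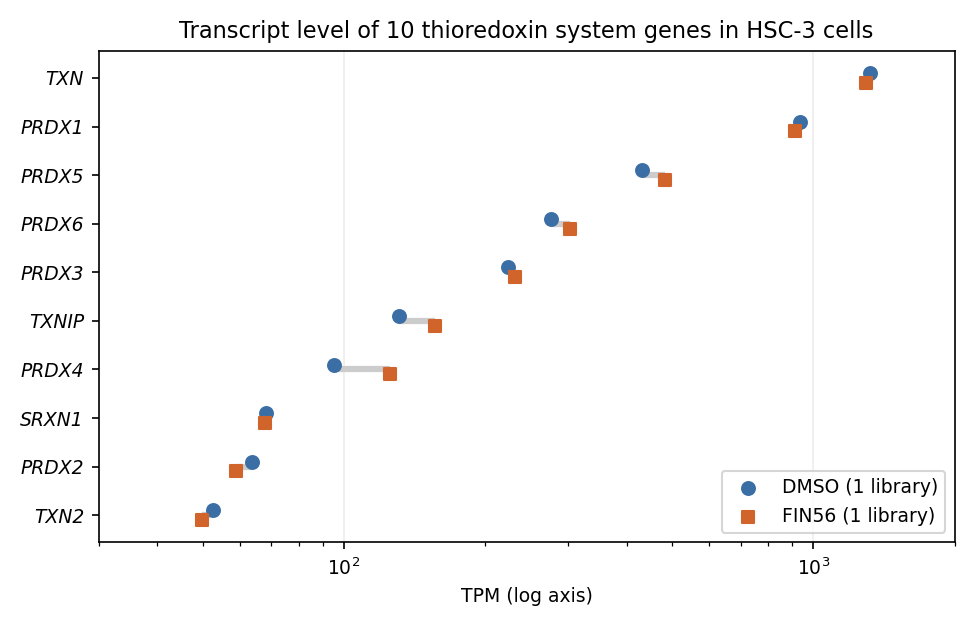
TPM of the 10 genes (log axis) in the DMSO library (circles) and the FIN56 library (squares), 1 library each, ordered by the DMSO level. Levels span from 49.8 to 1320 TPM, the order is the same in both libraries, and PRDX4 and TXNIP show the widest gaps.

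Levels of different genes were compared on the TPM scale, which is divided by gene length and sums to 1000000 in each library. The 10 genes together made up 3600 TPM with DMSO and 3681 TPM with FIN56, or 0.360% and 0.368% of the transcripts. TXN and PRDX1 supplied 2258 of these with DMSO and 2206 with FIN56. The order was the same in both libraries, running from TXN through PRDX1, PRDX5, PRDX6, PRDX3, TXNIP, PRDX4, SRXN1 and PRDX2 to TXN2. Neighbours such as SRXN1 and PRDX2, at 68.1 and 63.8 TPM with DMSO, lay close together, and without replicates it was not known whether they differ beyond the spread between cultures. Grouped by where the proteins mainly work, the 6 cytosolic members summed to 2798 TPM with DMSO and 2793 TPM with FIN56. The 3 mitochondrial members, TXN2, PRDX3 and PRDX5, summed to 707 TPM and 764 TPM, although PRDX5 is also found in peroxisomes and the cytosol.

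TXN encodes the cytosolic and nuclear thioredoxin and was the most abundant member. It lies on the minus strand of chromosome 9 from 110243810 to 110256507 (GRCh38), with 5 exons in its canonical transcript. Its expected counts were 39490 with DMSO and 39329 with FIN56, and its FPKM was 883 and 846. The FPKM ratio of 0.958 stood beside a count ratio of 0.957, with a 95% counting interval of 0.943 to 0.970. The interval (exact, Clopper-Pearson, on the share of counts from FIN56 and scaled by the library totals) covers counting error only, like all intervals here, and compares the libraries, not the conditions. TXN2 encodes the mitochondrial thioredoxin, from the minus strand of chromosome 22 (36467046 to 36481640). It had 2981 and 2887 counts and an FPKM of 35.1 and 32.6, a ratio of 0.929. TXN exceeded TXN2 25.2 times in TPM with DMSO and 25.9 times with FIN56.

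The reads of TXN touch those of processed pseudogenes. Of 18 rows annotated as pseudogenes of the members, 6 were at 0 in both libraries, and the highest had 25 counts. They held 57 counts in all with DMSO and 80 with FIN56, beside 155043 and 163468 for the 10 members. TXN together with TXNP5 and TXNP6 had 39515.00 counts with DMSO and 39357.00 with FIN56, whole numbers, although TXN alone stood at 39329.01 with FIN56. The longest run of bases that TXN shares exactly with TXNP5 has 66 bases, at positions 162 to 227 of the TXN coding sequence, and is shown because reads inside it cannot be assigned to 1 of the genes.
TXN and TXNP5: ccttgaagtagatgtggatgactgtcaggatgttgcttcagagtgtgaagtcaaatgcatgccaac
TXNP5 and TXNP6 held 6.72 and 18.28 counts with DMSO, and 8.15 and 19.84 with FIN56, too few to alter the TXN ratio at the precision given.

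The 6 peroxiredoxins summed to 2027 TPM with DMSO and 2115 TPM with FIN56. Of these, 4 had a ratio above 1, beside 57.3% of the well expressed genes. PRDX1, the main cytosolic peroxiredoxin of many cells, lies on the minus strand of chromosome 1 from 45510914 to 45542732. It had 37320 and 37089 expected counts and an FPKM of 627 and 598, a ratio of 0.953. PRDX2, its close relative and the abundant form of red blood cells, is on chromosome 19 (minus strand, 12796820 to 12801800). It had 2457 and 2310 counts and an FPKM of 42.6 and 38.6. Its ratio of 0.905, with a count ratio of 0.903 and an interval of 0.853 to 0.956, was the lowest of the 10. PRDX1 exceeded PRDX2 14.7 times in TPM with DMSO and 15.5 times with FIN56. In GENCODE release 44 the whole of PRDX2 lies within HOOK2 on the same strand. A long non-coding RNA on the opposite strand, ENSG00000267062, overlaps 4978 bases of PRDX2, and its counts were not whole. Part of the PRDX2 counts was assigned by estimate, as they were not whole either, and which gene shared these reads was not tested. The value of PRDX2 is therefore less certain than those of the 7 members with whole counts with DMSO and FIN56.

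PRDX6 (chromosome 1, plus strand, 173477330 to 173488815) acts on phospholipid hydroperoxides and is reduced with glutathione. It had 16176 counts with DMSO and 17706 with FIN56, and its FPKM was 185 and 198. The FPKM ratio was 1.08 and the count ratio 1.05 (interval 1.03 to 1.07). The difference between these ratios comes from the effective transcript length, an RSEM estimate made library by library, which was 1249 bases for PRDX6 with DMSO and 1221 with FIN56. PRDX6-AS1, transcribed across PRDX6 on the opposite strand, had 153 and 136 counts. The labels of these libraries name a stranded kit, but whether the counting used the strand is not given in the sources used here, so reads of PRDX6 and PRDX6-AS1 may not have been told apart.

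Among the mitochondrial forms, PRDX3 (chromosome 10, minus strand, 119167720 to 119178812) had 15251 and 16106 counts and an FPKM of 149 and 151. Its ratio of 1.01, with a counting interval of the count ratio of 0.992 to 1.04, was the closest to 1 of the 10 genes by FPKM, whereas SRXN1 was closer by TPM, rlog values and median-of-ratios size factors. PRDX5 (chromosome 11, plus strand, 64318121 to 64321811) had 15050 and 16952 counts and an FPKM of 288 and 316. Its FPKM ratio was 1.10 and its count ratio 1.08 (interval 1.06 to 1.11).

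PRDX4 showed the largest difference of the family. It encodes the peroxiredoxin of the endoplasmic reticulum (ER), where it turns hydrogen peroxide into disulfide bonds for protein folding, and lies on the plus strand of the X chromosome from 23664262 to 23686397. Its expected counts were 3775 with DMSO and 5110 with FIN56, its FPKM was 63.7 and 81.6, and its TPM was 95.3 and 125. The FPKM ratio was 1.28 and the count ratio 1.30, with an interval of 1.25 to 1.36. The counts were whole in both libraries. PRDX4 remained below 1.5 on each of the 8 scales computed, with ratios from 1.13 by the deposited rlog values to 1.33 by median-of-ratios size factors. Rlog values shrink differences between libraries by design, so 1.13 is not on a par with the other scales, where the lowest ratio was 1.28. Within the distribution of log2 FPKM ratios of the 3135 well expressed genes it stood at percentile 91.5. Its level relative to PRDX3 differed as well, since PRDX3 exceeded it 2.35 times in TPM with DMSO and 1.86 times with FIN56.

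SRXN1 encodes sulfiredoxin, a classical target of the transcription factor NRF2, and lies on the minus strand of chromosome 20 from 646615 to 653200. It had 7760 and 7899 counts and an FPKM of 45.5 and 44.5, a ratio of 0.978. The counting interval of 0.948 to 1.01 included 1, and the direction turned with the scaling, to just above 1 (1.00 after rounding) by median-of-ratios size factors and by rlog values. PRDX1 exceeded SRXN1 13.8 times in TPM with DMSO and 13.4 times with FIN56.

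TXNIP, an alpha-arrestin that binds reduced thioredoxin and also limits glucose uptake, lies on the minus strand of chromosome 1 from 145992435 to 145996579. It had 14783 counts with DMSO and 18080 with FIN56, and its FPKM was 87.9 and 102. The FPKM ratio was 1.16 and the count ratio 1.17 (interval 1.15 to 1.20), and across the 8 scales it ran from 1.08 to 1.20. TXNIP stood at 131 TPM beside 1320 TPM of TXN with DMSO, and at 156 TPM beside 1293 TPM with FIN56. TXNIP was the gene with the second largest ratio, after PRDX4.

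**Figure D2:**
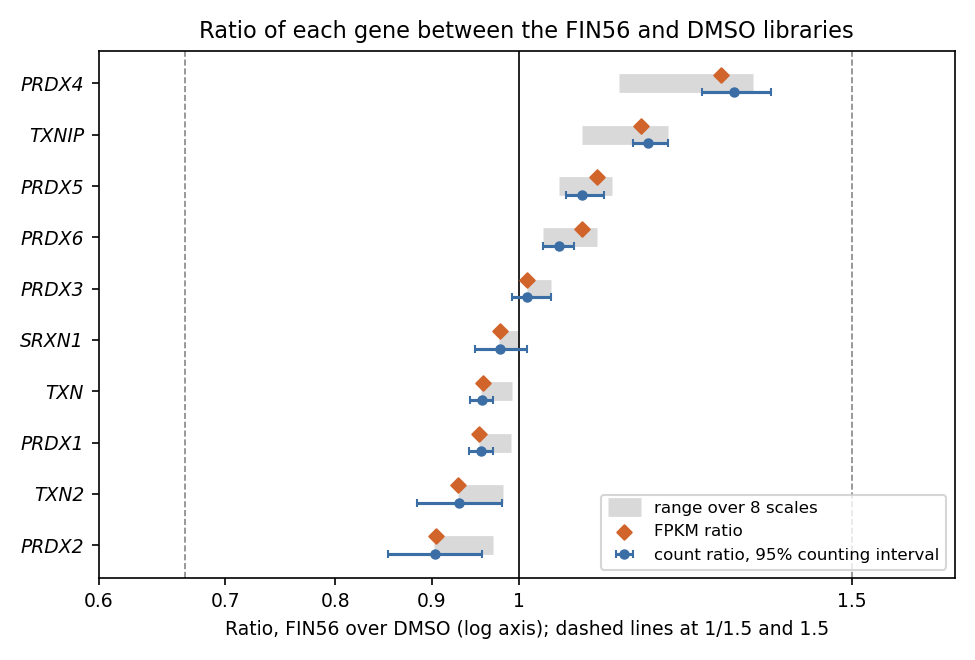
FIN56 over DMSO ratio of each gene (log axis): FPKM ratio (diamonds), count ratio by library totals with its 95% counting interval (circles and bars), and the range over 8 scales (grey). Every value lies between the dashed lines at 1/1.5 and 1.5, and PRDX4 and TXNIP lie farthest above 1.

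By counting error alone, the interval lay above 1 for 4 members (PRDX4, PRDX5, PRDX6 and TXNIP). It lay below 1 for 4 (TXN, TXN2, PRDX1 and PRDX2), and included 1 for PRDX3 and SRXN1. The share of all genes with an interval off 1 was not computed, so nothing particular to the members is read from these counts. Intervals of related genes with many counts lay off 1 as well, such as TKT (0.898 to 0.928) and PDIA3 (1.06 to 1.09). Differences of a few percent, as in TXN, were similar in size to the shift between scales, since the same counts of TXN gave 0.955 by TMM and 0.981 by median-of-ratios size factors. Apart from SRXN1, each member kept its direction on the 8 scales, but these are not 8 separate checks. A pseudocount cannot turn a direction. The TMM factors were 0.999 with DMSO and 1.001 with FIN56, so TMM and library totals nearly coincide. The effective length differed between the libraries (FIN56 against DMSO) by 1.51% for PRDX4 and 1.28% for TXNIP, and by -1.35% for PRDX5 and -2.22% for PRDX6. For the 6 other genes it differed by between -0.212% and 0.186%.

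**Figure D3:**
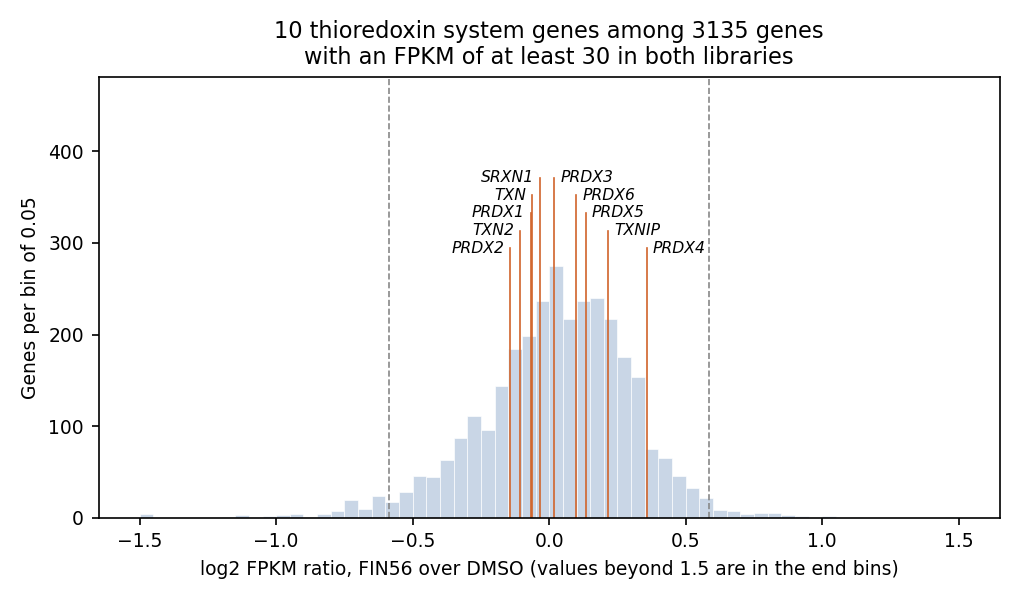
Histogram of log2 FPKM ratios (FIN56 over DMSO) of the 3135 genes at an FPKM of 30 or more in both libraries, in bins of 0.05, with lines for the 10 genes and dashed lines at a fold of 1.5. The 10 genes sit in the body of the distribution, from -0.14 to 0.36.

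Set against the well expressed genes, the members lay in the body of the distribution. The 5th and 95th percentiles of the log2 FPKM ratio over the 3135 genes were -0.47 and 0.43, and all 10 members lay between them. The 25th and 75th percentiles were -0.13 and 0.21, with 7 members between them. A log2 FPKM ratio of at most 0.15 in size was found for 8 of the 10 members and for 43.0% of the well expressed genes. This bound was not planned and lies just past PRDX2 at -0.14, so no stability of the family is read from it.

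The members are related in sequence to different degrees. The coding sequences of PRDX1 and PRDX2 were 72.2% identical over their alignment, those of PRDX3 and PRDX4 59.7%, and those of PRDX1 and PRDX4 49.3%, with gaps counted as differences. Over the canonical transcripts of the 45 pairs of members, the longest run of identical bases had 17 bases and was shared by PRDX1 and PRDX4. It is shown as the stretch where the transcripts of the family come closest.
PRDX1 and PRDX4: gctggctggaaacctgg
Other isoforms and matches with mismatches were not compared, and the counts of PRDX1 were not whole.

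Promoter sequences from RefSeq (GRCh38.p14) were at hand for 7 of the 10 genes, namely TXN, PRDX2, PRDX3, PRDX4, PRDX5, SRXN1 and TXNIP, at 9 start sites. The 250 bases before each start were searched on both strands for TGACNNNGC (core of the antioxidant response element bound by NRF2), CACGTG (an E-box) and CCAAT. TGACNNNGC was found at none of the 9 start sites, beside 10.9% of the 34943 promoters of the same length, which says only that these letters are not in these windows. CACGTG was found for PRDX4 and PRDX3, beside 6.32% of all promoters, and CCAAT for TXNIP, in both orientations, beside 11194 of the 34943 promoters. After the sequences had been read, a pair of CACGNG letters with 5 bases between them was searched as well, since TXNIP is known to carry a carbohydrate response element made of a pair of E-box-like sites, which the glucose-sensing factor MondoA binds. It was found for TXNIP alone among the members, and in 16 of all promoters (0.0458%). As the pattern was chosen with the TXNIP sequence already read, finding it there was no test, and nothing is read from its rarity. The promoter of ARRDC4, another known MondoA target, held CACGTG and CCAAT but not this pair. The sequences of the genes with the largest ratios, PRDX4 and TXNIP, and of PRDX3, which holds the same E-box as PRDX4 beside a ratio near 1, are shown 5′ to 3′ on the strand of the gene with the matches in capitals.
PRDX4, chrX:23667243-23667492, plus strand: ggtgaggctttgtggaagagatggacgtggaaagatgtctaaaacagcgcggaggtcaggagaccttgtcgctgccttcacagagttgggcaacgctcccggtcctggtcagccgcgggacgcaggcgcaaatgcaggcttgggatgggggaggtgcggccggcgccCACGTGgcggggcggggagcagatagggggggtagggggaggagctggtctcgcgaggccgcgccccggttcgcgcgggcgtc
PRDX3, chr10:119178813-119179062, minus strand: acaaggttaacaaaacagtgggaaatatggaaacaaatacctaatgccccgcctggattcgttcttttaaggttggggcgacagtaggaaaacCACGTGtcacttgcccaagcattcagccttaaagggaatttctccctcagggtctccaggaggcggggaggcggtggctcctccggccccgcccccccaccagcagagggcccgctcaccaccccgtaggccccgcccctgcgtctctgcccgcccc
TXNIP, chr1:145996580-145996829, minus strand: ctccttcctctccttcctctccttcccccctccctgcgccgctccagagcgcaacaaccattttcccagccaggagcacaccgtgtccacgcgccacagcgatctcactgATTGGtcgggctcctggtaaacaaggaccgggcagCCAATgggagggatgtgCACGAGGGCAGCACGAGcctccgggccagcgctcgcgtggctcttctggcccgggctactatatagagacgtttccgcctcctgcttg
Counted from the start site, with -1 as the last base before it, the E-box of PRDX4 lies at -83 to -78, that of PRDX3 at -157 to -152, and the pair of TXNIP at -88 to -72. The match of letters shared by PRDX4 and PRDX3 went with ratios of 1.28 and 1.01, and no binding was measured here.

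The enzymes that keep thioredoxin reduced differed in direction. Of 13 thioredoxin reductases and NADPH-supplying enzymes, 5 were higher and 8 lower, with a median log2 FPKM ratio of -0.15. A ratio of 1/1.5 or less was found for 2 of the 13, beside 17.3% of all genes expressed in both libraries. TXNRD1, the cytosolic reductase of TXN, had 41918 counts with DMSO and 54288 with FIN56, an FPKM ratio of 1.23. TXNRD2, the mitochondrial reductase of TXN2, had a ratio of 0.894, beside the thioredoxin ratios of 0.958 for TXN and 0.929 for TXN2. TXNRD3 had the highest FPKM ratio of the list, 1.37, with 587 and 891 counts. The genes past the threshold were the NADPH-producing enzymes PGD, of the pentose phosphate pathway, with 19018 and 12355 counts (ratio 0.657), and IDH1, with 5632 and 3743 counts (ratio 0.651). By the deposited TPM values 1 of these genes was past it.

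Of 16 thioredoxin substrates and partners, 9 were higher and 7 lower, none past the threshold, and their median log2 FPKM ratio of 0.06 turned to -0.01 by TMM-scaled counts. RRM2, the regulated subunit of ribonucleotide reductase, was the lowest, with 20750 and 14014 counts and an FPKM ratio of 0.674, and a count ratio of 0.649 that lies past 1/1.5. RRM2B, its p53-inducible form, was the highest at 1.36. MAP3K5, the kinase ASK1 that thioredoxin holds inactive, stood at 1.27, and NXN, nucleoredoxin, at 1.33. Glutaredoxins are reduced by glutathione, as thioredoxins are by thioredoxin reductase. The glutaredoxins and glutathione reductase (5 genes) lay between 0.885 for GLRX and 1.30 for GLRX2, with GSR at 0.968. Their median log2 FPKM ratio of -0.02 turned to 0.02 by median-of-ratios size factors.

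Other enzymes that remove peroxide and superoxide were tested for 8 of 10 genes, of which 3 were higher and 5 lower. GPX2, a glutathione peroxidase of epithelia, had 218 counts with DMSO and 83 with FIN56, an FPKM ratio of 0.360 and a counting interval of the count ratio of 0.281 to 0.473. GPX3, a secreted form, had 104 and 58 counts (ratio 0.500), and catalase (CAT) stood at 0.725 without reaching the threshold. GPX4 had 11851 and 12123 counts, a ratio of 0.992, and transcript levels do not measure its protein. GPX1 and SOD2 stood at 1.20 and 1.23. Both genes past the threshold were low, since GPX2 and GPX3 had an FPKM of at most 3.67. Among all genes expressed in both libraries, 17.3% had a ratio of 1/1.5 or less.

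PRDX4 was looked at beside 16 ER thioredoxin-fold oxidoreductases and oxidases. Their median log2 FPKM ratio was 0.21, a ratio of 1.16, and the median was above 0 on all 8 scales (0.07 to 0.24). In this list 10 genes were higher and 6 lower, beside 57.3% higher among the well expressed genes. QSOX2, a sulfhydryl oxidase, was past 1.5 at 1.56. Its count ratio was 1.32 (4698 and 6467 counts), so that call rests on the effective length. ERO1A, the oxidase that recharges protein disulfide isomerase and releases peroxide, stood at 1.22, QSOX1 at 1.29, TMX1 at 1.28 and ERP44, which retains PRDX4 and ERO1A in the secretory pathway, at 1.26. The disulfide isomerases P4HB and PDIA6 stood at 0.956 and 0.983. TXNDC11 was the lowest of the list at 0.863 (count ratio 0.803), and TMX3 and PDIA5 stood at 0.925 and 0.949. PRDX4 at 1.28 lay among the higher values of this list, and no test of a likeness was possible.

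Several members are known NRF2 targets, so the regulators and other targets of NRF2, the main antioxidant transcription factor, were read beside them. Of 7 regulators 6 were higher, beside 11770 of the 24454 genes expressed in both libraries, and none was past the threshold. NFE2L2, which encodes NRF2, stood at 1.15, its inhibitor KEAP1 at 1.26 and the repressor BACH1 at 0.870. Of 25 targets outside the family, 10 were higher and 15 lower, with a median log2 FPKM ratio of -0.12. A ratio of 1/1.5 or less was found for 3 of the 25, beside 17.3% of all genes expressed in both libraries. Of the 25 targets, 6 are also on the reductase and NADPH list, PGD among them, and 1 is on the glutaredoxin list. AKR1C1 and AKR1C2, aldo-keto reductases, had ratios of 0.527 and 0.477, but they are near-identical genes whose reads are divided by estimate. NQO1 had 31383 and 23935 counts (ratio 0.770). The ferritin genes FTL and FTH1 were higher at 1.37 and 1.27, and HMOX1, with 119 and 191 counts, stood at 1.36. By its count ratio of 1.54 (interval 1.22 to 1.96) HMOX1 was past 1.5. TXN, PRDX1 and SRXN1, with ratios from 0.953 to 0.978, lay between these extremes.

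TXNIP was set beside 13 alpha-arrestins and genes around MondoA, of which 12 could be tested. ARRDC4, an arrestin that like TXNIP is a MondoA target, had 2312 and 3452 counts and an FPKM ratio of 1.43, and KLF10 stood at 1.28. The other arrestins tested differed in direction, with ARRDC2 at 1.49 (count ratio 1.30), ARRDC1 at 0.815 and ARRDC3 at 0.872. HK2 stood at 1.01. The glucose transporter SLC2A1, whose presence at the cell surface TXNIP limits, stood at 1.12. The MondoA gene MLXIP stood at 1.00 by FPKM and is counted as higher here, but its count ratio was 0.858 (interval 0.830 to 0.887), with 7503 and 6704 counts. DDIT4, a stress-induced inhibitor of mTORC1 signalling, was the lowest, with 32404 counts with DMSO and 12123 with FIN56, an FPKM ratio of 0.359 and a counting interval of the count ratio of 0.352 to 0.367. In this list 9 genes were higher and 3 lower, with a median log2 FPKM ratio of 0.23. The median was 0.04 by TMM-scaled counts and 0.02 by rlog values. Over the genes of the list at an FPKM of 30 or more in both libraries it was -0.06. MLXIPL was past the threshold on 3 and 1 counts, opposite to the direction of its counts, and carries no information at this depth.

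**Figure D4:**
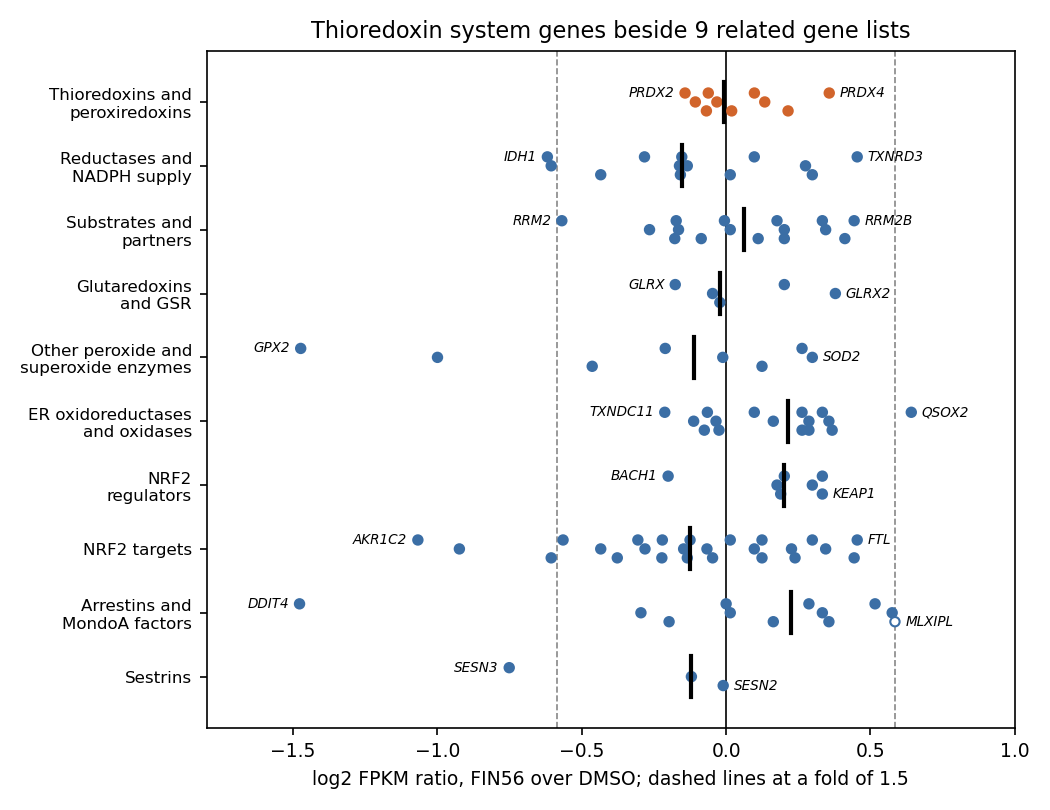
log2 FPKM ratio (FIN56 over DMSO) of each gene in 9 related lists and of the 10 thioredoxin and peroxiredoxin genes, with a black bar at each median, dashed lines at a fold of 1.5 and open circles for genes under 100 expected counts in both libraries together. The 10 genes span from -0.14 to 0.36, a range like those of the glutaredoxins and the NRF2 regulators, and DDIT4, GPX2 (at low counts) and AKR1C2 lie farthest to the left.

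Over the 9 lists, counting each gene once, 98 genes could be tested, and their median log2 FPKM ratio was 0.01. Among all genes expressed in both libraries, 14.7% were at 1.5 or more and 17.3% at 1/1.5 or less. Among the well expressed genes the shares were 1.59% and 2.84%. Of the 98 genes, 2 had a ratio of 1.5 or more, MLXIPL on its few counts among them, and 8 one of 1/1.5 or less. The sestrins, stress proteins that are reported to help regenerate peroxiredoxins, were part of this count, with SESN2 at 0.993 and SESN3, with 369 and 244 counts, at 0.594.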

How the data were processed

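RNA-seq was read for 1 library of HSC-3 cells under DMSO and 1 under FIN56. The labels name a stranded mRNA kit. The paper's methods describe tumor samples, and the same read processing is assumed for these libraries: alignment with STAR 2.6.1a to GRCh38 with Ensembl release 94, and RSEM 1.3.1 (versions from the submitters' processing notes). As deposited, the expected counts are RSEM estimates without normalization. The FPKM and TPM values deposited by the authors were scaled by RSEM for library size and effective length. The authors made the rlog values with DESeq2 1.26.0. These are log2 values in which differences between libraries are shrunk by design.

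Here the FPKM ratio was taken over genes above 0 in both libraries. Counting intervals (95%) used rounded expected counts, although reads counted without molecular identifiers cannot be taken as independent molecules. Alternatives were TPM, rlog, counts scaled by TMM (edgeR 4.0.16), by size factors (DESeq2 1.42.0) or by library totals, pseudocounts of 0.1 and 1 FPKM, a threshold of 2, and minimum counts or FPKM. An FPKM of 30 in both libraries was chosen after seeing the data. The 8 scales are FPKM, TPM, rlog, the 3 scalings of counts and the 2 pseudocounts. No sample column was left unmatched.

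The members and the 9 related lists, written from general knowledge, were chosen with earlier results of these data known. All 10 members are named, with some of their annotated pseudogenes. Of the lists, genes past the threshold with at least 100 counts in both libraries together are named. The highest or lowest of some lists are named too, as are textbook partners whose role is described. Other list genes, among them MLXIPL and KLF10, were chosen after their values were seen. Positions are from GENCODE release 44 on GRCh38 (99.7% of identifiers matched) and promoters from RefSeq on GRCh38.p14. The scripts (Python 3.11.15, R 4.3.3) were tested on simulated data. The values of some single genes are left out here.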

Additional observations from a re-analysis of the deposited data

How the results depend on the processing

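No paired analysis was possible because DMSO and FIN56 were each measured in 1 library, without a test, and for the same reason no replicate could be left out. The SRXN1 ratio and the members' median turned direction with the scaling, as given above, and no member was past 1.5 or 1/1.5 under any of the 11 alternatives. Of 143 values under alternatives, 101 stayed within counting error or within 1.5 times the count and 42 moved. Some moves follow from how the values are made. A filter or a higher threshold removes genes by construction, and rlog values shrink differences by design. TPM differs from FPKM by 1 factor per library, as the scalings of counts do from each other, so all genes shift alike between them. The cause of other moves was not tested beyond the effective lengths given above. By TPM, TXN moved to 0.979, PRDX1 to 0.974 and PRDX6 to 1.10. By rlog TXN moved to 0.992, TXN2 to 0.981, PRDX1 to 0.991, PRDX2 to 0.970, PRDX4 to 1.13, PRDX5 to 1.05, PRDX6 to 1.03 and TXNIP to 1.08. By median-of-ratios size factors TXN moved to 0.981, PRDX1 to 0.979, PRDX3 to 1.04 and TXNIP to 1.20, and PRDX6 was at 1.05 both by TMM and by library totals. The number of all genes at 1.5 or more (3583) was 7 by rlog, 476 after adding 1 FPKM to each value, 2088 for a fold of 2, 1323 where both libraries had at least 10 counts, 489 where both had an FPKM of 1 or more and 50 where both had 30 or more. The number at 1/1.5 or less (4240) was 16, 785, 2384, 1936, 855 and 89 under the same settings. Of the related lists, the number at 1.5 or more (2) was 0 by rlog, at a threshold of 2 and at an FPKM of at least 30, and 1 by TMM, size factors, library totals, either pseudocount, at least 10 counts and an FPKM of at least 1. The number at 1/1.5 or less (8) was 1 by rlog, 4 at a threshold of 2 and 3 at an FPKM of at least 30. Depth did not limit the members, whose lowest count was 2310, but it does limit genes such as MLXIPL.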

Other observations

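Of the pseudogene rows, PRDX3P1 had 11 counts with DMSO and 25 with FIN56, a count ratio of 2.18 with a counting interval of 1.04 to 4.92. The transcript annotated opposite PRDX2, ENSG00000267062, had 2.75 and 26.4 counts.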
